A study of Mus musculus with 34 samples.

Results

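The 10 genes described here are chemokine ligands that activated T cells and their neighbours in lymphoid tissue make: the CC ligands Ccl1, Ccl3, Ccl4, Ccl5, Ccl20 and Ccl22, the C ligand Xcl1, and the CXC ligands Cxcl9, Cxcl10 and Cxcl16. They were taken by symbol from 19938 genes that had a probe set annotated to 1 symbol, with the probe set of highest mean over all arrays where a gene had several. Each of the 10 had 1 such probe set. All 10 passed the filter on low values, as did 11413 genes in all. The filter asked that the highest of the 10 group means reach 5.33, the median of all values in the table, and this value is called the filter limit below.

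The cells were CD4+ splenocytes, taken from the spleen with CD4 magnetic beads, of female mice aged 8 weeks from 5 inbred strains, namely 129X1/SvJ, DBA/2J, A/J, C57BL/6J and Balb/c. T1 cells had been stimulated for 4 h with phorbol 12-myristate 13-acetate (PMA, 10 ng/ml), which activates protein kinase C, and ionomycin (1 uM), which raises cell calcium, so that the T cell receptor itself was bypassed. T0 cells were not stimulated, and the labels leave unclear whether they spent those hours in culture. A/J and C57BL/6J had 4 arrays at T1 and 4 at T0, and each of the other strains had 3 and 3, which gave 34 arrays in all. Replicates are numbered and called biological in the labels, which do not say whether each came from 1 mouse or from a pool. Values are log2 intensities of Affymetrix probe sets, and a difference of 1 is a doubling of intensity. Array medians lay between 5.28 and 5.39. The 6 T helper markers measured with 1 symbol were all above the filter limit on average, Cd3g, Cd28 and Cd5 being the brightest, and their mean lay between 8.71 and 9.58 on T1 arrays and between 9.51 and 9.98 on T0 arrays. Balb/c T1 replicate 2 stood apart, with a mean correlation of 0.948 with the other arrays of its group, against 0.965 and 0.969 for these and at least 0.976 on every array of the other groups.

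Chemokines are small secreted proteins that guide leukocytes along a gradient by binding receptors of the G protein-coupled family. Ccl3, Ccl4 and Ccl5 draw effector T cells, monocytes and natural killer cells. Xcl1 draws cross-presenting dendritic cells through Xcr1. Ccl1, Ccl22 and Ccl20 bind Ccr8, Ccr4 and Ccr6, receptors of skin-homing, type 2, regulatory and interleukin-17-producing T cells. Cxcl9 and Cxcl10 are induced by interferons and bind Cxcr3 on type 1 helper cells, and Cxcl16 is made as a membrane protein that binds Cxcr6. In T cells PMA and ionomycin switch on the transcription factors NF-kappaB, AP-1 and NFAT, whose binding motifs were looked for in the promoters.

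Of the 10 genes, 7 had a promoter in the table of RefSeq sequences (build GRCm38.p6, from C57BL/6J), and the 5 printed are those the results turn on: Ccl3, with one of the largest rises, and 4 genes whose response differed between strains. Each is the 250 bases before the annotated start, 5′ to 3′ on the gene's own strand. They lie at chr11:83649379-83649628 (Ccl3, minus strand), chr1:164935523-164935772 (Xcl1, minus), chr11:82179813-82180062 (Ccl1, minus), chr1:83116516-83116765 (Ccl20, plus) and chr5:92348890-92349139 (Cxcl10, minus). Capitals mark every match on either strand to the kappaB form GGGNNNNNCC, the AP-1 motif TGANTCA, the NFAT core GGAAA or the interferon-response form GAAANNGAAA, and matches that overlap run together.
Ccl3: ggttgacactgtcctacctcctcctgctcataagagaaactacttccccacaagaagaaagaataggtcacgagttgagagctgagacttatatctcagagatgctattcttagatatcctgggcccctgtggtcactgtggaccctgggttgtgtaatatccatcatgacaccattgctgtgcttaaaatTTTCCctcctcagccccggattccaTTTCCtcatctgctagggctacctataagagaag
Xcl1: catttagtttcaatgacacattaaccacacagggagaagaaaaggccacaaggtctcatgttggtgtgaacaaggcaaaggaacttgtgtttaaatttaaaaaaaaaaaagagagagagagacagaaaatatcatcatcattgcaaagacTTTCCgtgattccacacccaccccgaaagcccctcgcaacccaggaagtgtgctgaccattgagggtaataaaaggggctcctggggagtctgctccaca
Ccl1: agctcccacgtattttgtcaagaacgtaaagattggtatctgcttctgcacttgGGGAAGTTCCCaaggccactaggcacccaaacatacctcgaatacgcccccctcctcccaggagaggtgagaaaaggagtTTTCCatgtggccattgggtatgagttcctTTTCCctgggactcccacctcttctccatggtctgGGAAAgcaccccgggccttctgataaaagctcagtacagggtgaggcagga
Ccl20: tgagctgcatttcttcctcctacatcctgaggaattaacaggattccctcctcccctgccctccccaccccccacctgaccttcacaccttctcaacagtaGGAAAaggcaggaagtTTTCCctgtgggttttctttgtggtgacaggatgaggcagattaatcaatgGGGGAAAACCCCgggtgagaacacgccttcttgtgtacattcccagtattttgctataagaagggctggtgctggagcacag
Cxcl10: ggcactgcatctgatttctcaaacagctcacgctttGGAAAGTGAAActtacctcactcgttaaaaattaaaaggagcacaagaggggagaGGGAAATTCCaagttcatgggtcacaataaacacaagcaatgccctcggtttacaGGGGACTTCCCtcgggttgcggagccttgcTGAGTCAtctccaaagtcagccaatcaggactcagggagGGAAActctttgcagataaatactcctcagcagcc

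Matches of the kappaB form lay in the promoters of 5 of the 7 genes (Ccl1, Ccl20, Ccl22, Cxcl9 and Cxcl10), against 45.8% of 32851 promoters of the same length. The NFAT core was present in 6 of 7 (all but Ccl22), against 55.6% of all promoters. Only Cxcl10 held the AP-1 motif (6.75% of all promoters) and only Cxcl10 held the interferon-response form (2.98%). In the Cxcl10 promoter the kappaB matches begin at -159, -104 and -103 relative to the start. Ccl3 and Xcl1 had the NFAT core alone among these 4 motifs in this window. These matches are descriptions of letters and not sites shown to be bound.

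Stimulation was followed by higher RNA for most of the ligands. Averaged over the 5 strains, 9 of the 10 rose, none fell and 1, Cxcl16, was not called. The test was limma's moderated test in a model of 10 groups, called at a Benjamini-Hochberg adjusted p under 0.05 over the 11413 genes. Among all genes tested, 82.3% were called for this contrast, 36% upwards and 46.3% downwards, so that a call alone says little here. The size says more: 7 of the 10 rose by at least 1 log2 unit, against 6.23% of all genes, and the median change was 2.11 over the 10 ligands and -0.07 over all genes. For 6 ligands (Ccl1, Ccl3, Ccl4, Ccl20, Ccl22 and Xcl1) the lowest T1 array lay above the highest T0 array over all strains, against 9.28% of all genes. The same 6 were called up in each of the 5 strains, against 13.8% of all genes. Ccl1 and Ccl20, which are in each of these counts, had every T0 strain mean under the filter limit. They passed the filter through T1 alone, so their place in these counts is not independent of the filter. By strain, the ligands called up numbered 9 in A/J (20.3% of all genes), 8 in DBA/2J (23.8%), and 7 each in 129X1/SvJ (21.6%), Balb/c (20.6%) and C57BL/6J (25.1%). RNA of a bulk sample falls alike with fewer cells of a type and with less RNA per cell, and these cannot be told apart here.

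**Figure D1:**
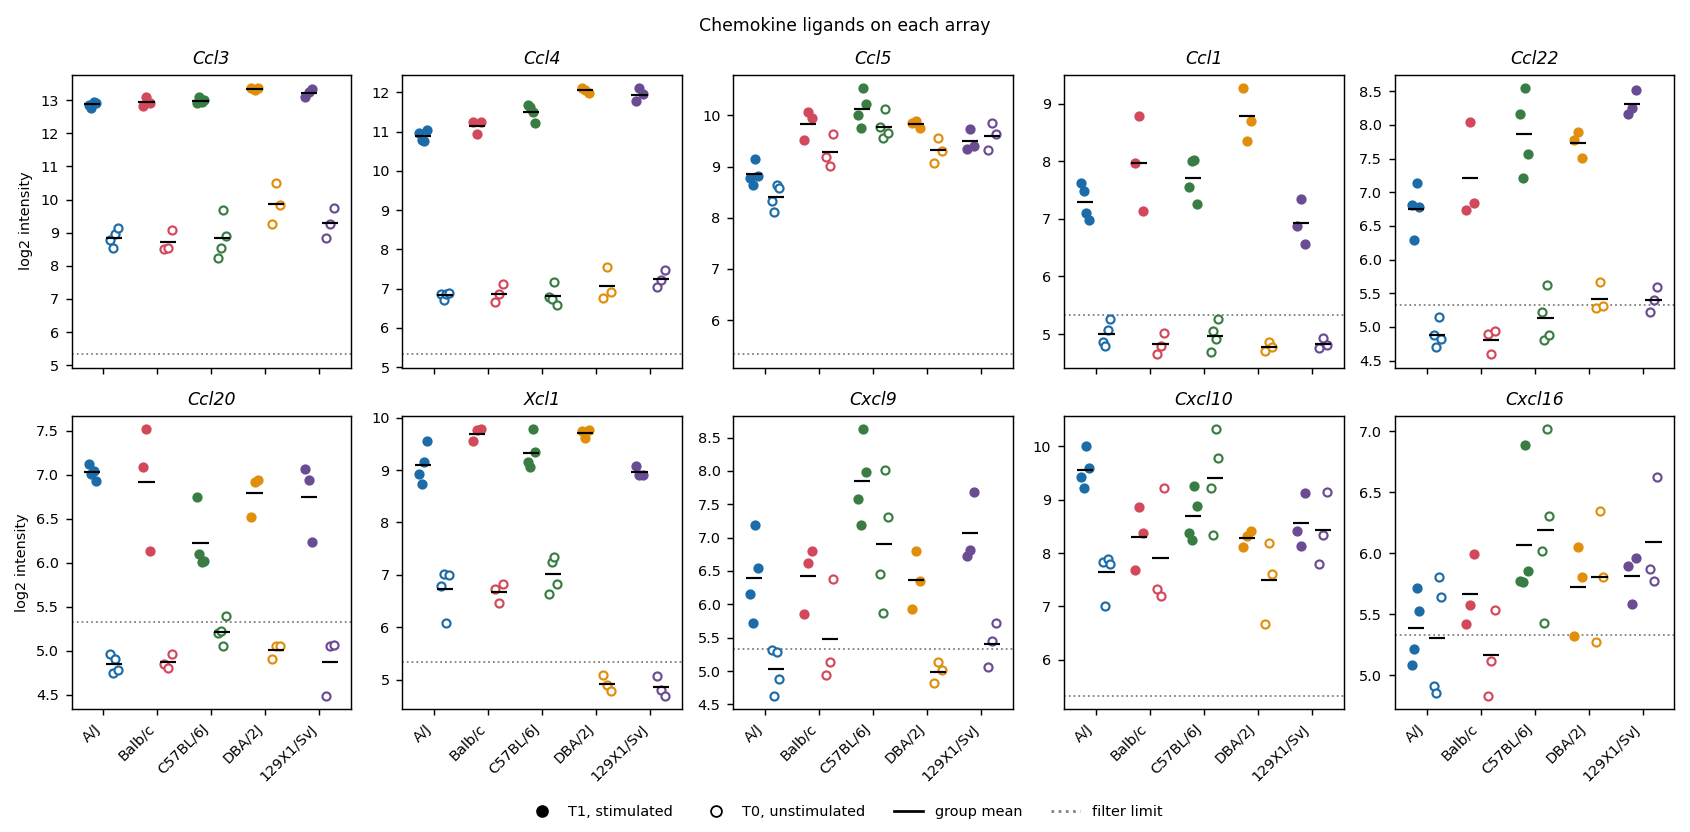
Log2 intensity (vertical axis) of the 10 ligands on each of the 34 arrays, by strain, with T1 arrays as filled points to the left of the open T0 points of the same strain. Black bars are group means and the dotted line is the filter limit of 5.33. T1 and T0 arrays do not overlap for Ccl1, Ccl3, Ccl4, Ccl20, Ccl22 and Xcl1.

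Strain differences were tested by a moderated F test over the 5 strain means at each time and over the 5 responses. At T1, 7 of the 10 ligands differed between strains (31% of all genes), at T0 6 of 10 (18.5%), and the response differed for 5 of 10 (6.92%): Ccl1, Ccl4, Ccl20, Xcl1 and Cxcl10. Between single pairs of strains, 28 of 100 differences were called at T1 and 21 of 100 at T0, against 9.77% and 6.87% over all genes and pairs, with p-values adjusted over genes and pairs together. With 1 array left out at a time, 13 of the 28 and 13 of the 21 pair calls held in all 34 fits. The count of responses that differed ranged from 2 to 5 in those fits. For Ccl1 and Ccl20, with every T0 strain mean under the filter limit, the response range is not a measure apart from the T1 range.

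**Figure D2:**
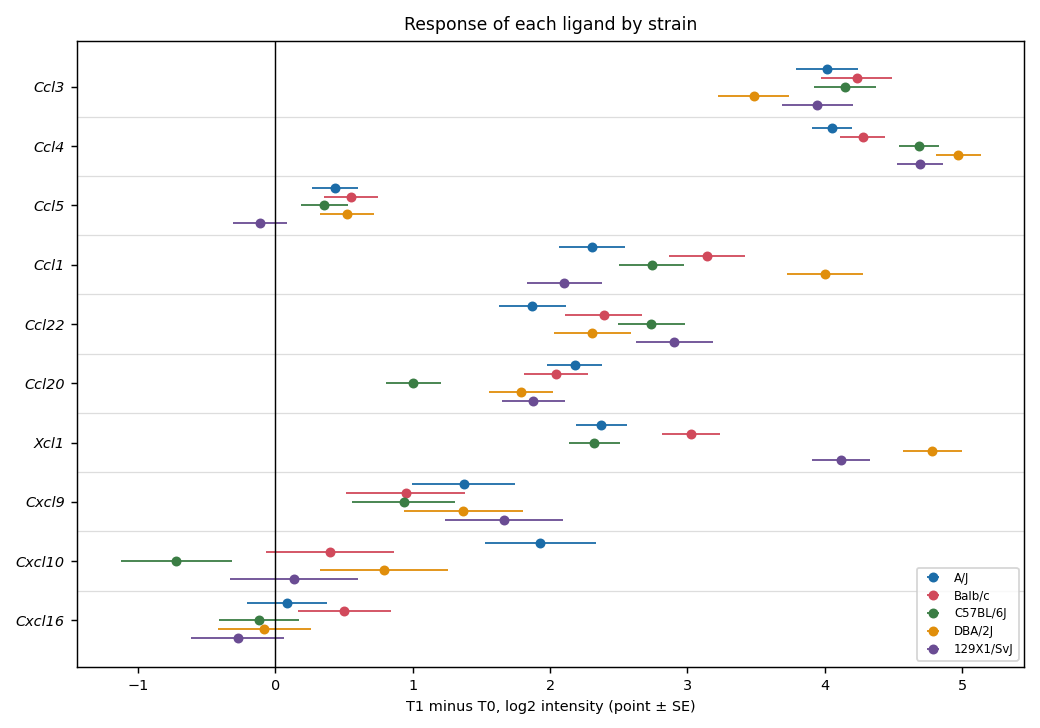
T1 minus T0 in log2 intensity (horizontal axis) for each ligand in each strain, as the model's estimate with its standard error. Xcl1 runs from 2.32 in C57BL/6J to 4.78 in DBA/2J, and Cxcl10 from -0.72 in C57BL/6J to 1.93 in A/J.

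Ccl4 (macrophage inflammatory protein 1-beta), which recruits monocytes and effector T cells, had the largest mean rise of the 10 ligands, and it ranked 5 among the 11413 genes. It rose by 4.54 ± 0.07 (SE) log2 units, or 23.2-fold, higher in 17 of 17 pairs of same-numbered T1 and T0 arrays (adjusted p = 4.02e-30, limma). In DBA/2J it read 12.11, 12.07 and 11.98 at T1, against 6.76, 7.56 and 6.92 at T0. In 129X1/SvJ it read 11.77, 12.10 and 11.96 at T1, against 7.04, 7.23 and 7.48 at T0. The arrays of A/J read 10.97, 10.80, 10.77 and 11.04 at T1, against 6.87, 6.72, 6.88 and 6.90 at T0. No T1 array of A/J reached the lowest T1 array of DBA/2J or 129X1/SvJ. At T0 the arrays of DBA/2J overlapped with those of A/J, and those of 129X1/SvJ all lay above them. The means of C57BL/6J (11.68, 11.63, 11.50 and 11.23) and Balb/c (11.25, 10.95 and 11.25) lay between them at T1. At T0 C57BL/6J read 6.79, 6.73, 7.18 and 6.58, and Balb/c read 6.66, 6.86 and 7.11.

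The T1 level of Ccl4 differed between strains (range of the 5 means 1.16, adjusted p of the F test 3.24e-06), and 6 of 10 pairs were called. DBA/2J exceeded A/J by 1.16 ± 0.16 (SE, adjusted p = 8.76e-06), and 129X1/SvJ exceeded A/J by 1.05 ± 0.16 (adjusted p = 3.54e-05). No neighbours in the order DBA/2J, 129X1/SvJ, C57BL/6J, Balb/c, A/J were told apart with all arrays, and without DBA/2J T0 replicate 3 129X1/SvJ was called above C57BL/6J (adjusted p = 0.0373). At T0 the range was 0.43 and was not called (adjusted p = 0.18). The response ran from 4.05 in A/J to 4.97 in DBA/2J, and its range of 0.92 was called narrowly (adjusted p = 0.0298). It lost the call in 9 of the 34 fits without 1 array, namely without A/J T0 replicate 1, 4 or 5, A/J T1 replicate 2 or 4, DBA/2J T0 replicate 2 or 4, or DBA/2J T1 replicate 2 or 3, with adjusted p from 0.053 to 0.0695.

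Ccl3 (macrophage inflammatory protein 1-alpha), a ligand of Ccr1 and the neighbour of Ccl4 on chromosome 11 in RefSeq's gene order, rose by 3.97 ± 0.11 log2 units, or 15.6-fold (adjusted p = 3.98e-24, 17 of 17 pairs). Its T1 arrays read from 12.75 to 13.37 with the table's highest value at 14.26, and its T0 arrays from 8.24 to 10.50. Ccl3 was called between strains at T0 and not at T1: the range of strain means was 0.48 at T1 (adjusted p = 0.415) and 1.15 at T0 (adjusted p = 0.00409). The T0 arrays of DBA/2J read 9.26, 10.50 and 9.84, those of 129X1/SvJ 8.83, 9.27 and 9.74, those of A/J 8.77, 8.53, 8.96 and 9.13, those of Balb/c 8.51, 8.54 and 9.08, and those of C57BL/6J 8.24, 8.53, 9.68 and 8.90. DBA/2J was called above Balb/c, C57BL/6J and A/J. These 3 calls and that of the F test rest on DBA/2J T0 replicate 3, without which the F test had an adjusted p of 0.072. The response of Ccl3 ran from 3.48 in DBA/2J to 4.23 in Balb/c and was not called between strains (adjusted p = 0.638).

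Ccl5 (RANTES), which effector and memory T cells hold ready before stimulation, changed little with stimulation and clearly with strain. Its mean rise was 0.35 ± 0.08 log2 units (1.27-fold, adjusted p = 0.000354), higher at T1 in 15 of 17 pairs. Rises of 0.55 in Balb/c, 0.52 in DBA/2J and 0.43 in A/J were called, and each lost its call without 1 or another array of its own strain. The changes of 0.36 in C57BL/6J and -0.11 in 129X1/SvJ were not called. A/J was the lowest strain at both times, with 8.78, 8.65, 9.15 and 8.81 at T1 and 8.33, 8.10, 8.64 and 8.58 at T0. C57BL/6J, the highest on average, read 10.00, 9.76, 10.54 and 10.23 at T1 and 9.77, 9.55, 10.12 and 9.66 at T0. Every array of A/J lay below every array of each other strain at the same time.

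Over the other strains Ccl5 ran from 9.34 to 10.06 at T1 and from 9.02 to 9.85 at T0 (Balb/c, DBA/2J and 129X1/SvJ). C57BL/6J exceeded A/J by 1.29 ± 0.17 at T1 (adjusted p = 7.11e-06) and by 1.36 ± 0.17 at T0 (adjusted p = 1.21e-06). All 4 pairs with A/J were called at T1 and all 4 at T0, and of these only 129X1/SvJ above A/J at T1 lost its call, without A/J T1 replicate 2 or 129X1/SvJ T1 replicate 2. The 3 neighbouring pairs without A/J were not told apart at either time. C57BL/6J was also called above 129X1/SvJ at T1, by 0.64 ± 0.18 (adjusted p = 0.0232). That call was lost without C57BL/6J T1 replicate 3 or 129X1/SvJ T1 replicate 1 or 4. The range of the response over strains was 0.66 and was not called (adjusted p = 0.449). Scores of the CD8 T or NK marker list (9 of 9 measured, 6 above the filter limit on average) were also lowest in A/J at T0, from 5.24 to 5.41 against 5.52 to 6.46 over the other strains, and ran from 5.07 to 5.35 in A/J at T1 against 5.19 to 6.10. Of the 9 genes of this list, led by Nkg7, Prf1 and Cd8b1, 7 passed the filter, and Ncr1 and Klrb1c had no group mean at the limit. Of the 7, 5 differed between strains at T0 by the F test, against 18.5% of all genes. The part of such cells in the Ccl5 difference was not tested. Nor was it tested whether sequence differences between strains under the probes of its 1 probe set alter this signal.

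Xcl1 (lymphotactin), which T cells and natural killer cells secrete to bring in dendritic cells with Xcr1, showed the widest strain difference at T0 of the 10 ligands. C57BL/6J read 6.63, 7.25, 7.34 and 6.83 at T0, A/J 6.79, 7.01, 6.09 and 6.99, and Balb/c 6.74, 6.47 and 6.82. The T0 arrays of DBA/2J read 5.09, 4.90 and 4.77 and those of 129X1/SvJ 5.06, 4.79 and 4.69, all below the filter limit. The first 3 strains did not overlap with the last 2. Each of the 6 pairs across these strains was called, from 1.76 (Balb/c above DBA/2J) to 2.16 ± 0.20 (C57BL/6J above 129X1/SvJ, adjusted p = 3.25e-09), and each held without any 1 array. No pair among C57BL/6J, A/J and Balb/c and no pair of DBA/2J and 129X1/SvJ was told apart at T0.

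After stimulation the strains were close together. The T1 arrays of DBA/2J read 9.74, 9.60 and 9.77 and those of 129X1/SvJ 9.08, 8.91 and 8.90, the 2 strains at the bottom at T0. Balb/c read 9.55, 9.76 and 9.78 at T1, C57BL/6J 9.16, 9.06, 9.78 and 9.34, and A/J 8.93, 8.73, 9.15 and 9.55. DBA/2J thus stood at the top of the T1 means and 129X1/SvJ at the bottom, 0.74 ± 0.21 lower (adjusted p = 0.0228), a call lost without DBA/2J T1 replicate 2 or 4 or 129X1/SvJ T1 replicate 2 or 4. The range at T1, 0.74, was called (adjusted p = 0.0115) and was smaller than the range at T0, 2.16 (adjusted p = 5.3e-11).

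The rise in Xcl1 was 4.78 ± 0.21 log2 units in DBA/2J and 4.12 ± 0.21 in 129X1/SvJ. Balb/c had 3.02 ± 0.21, A/J 2.37 ± 0.18 and C57BL/6J 2.32 ± 0.18, with an adjusted p of 4.42e-07 for the difference between strains. That call held in every fit with 1 array left out. The rises in DBA/2J and 129X1/SvJ start from T0 values under the filter limit, where their size is not exact. With every value under the limit set to it, an alternative chosen after the data were seen, DBA/2J rose by 4.38 and 129X1/SvJ by 3.64, and the range of 2.06 was still called (adjusted p = 1.16e-05). The mean rise was 3.32 ± 0.09 (adjusted p = 1.84e-24, 17 of 17 pairs). Since T0 means lay under the filter limit in DBA/2J and 129X1/SvJ, a fold is given only for the other 3 strains: 8.13 for Balb/c, 5.18 for A/J and 5.00 for C57BL/6J. The CD8 T or NK marker scores at T0 were 5.76 to 6.46 in C57BL/6J, 6.00 to 6.09 in Balb/c and 5.24 to 5.41 in A/J, the 3 strains higher in Xcl1 at T0, and 5.52 to 5.79 in DBA/2J and 5.58 to 5.68 in 129X1/SvJ. The part of such cells in the Xcl1 difference was not tested.

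Ccl1, the ligand of Ccr8, lay under the filter limit on every T0 array, between 4.65 and 5.26, and above it on every T1 array. At T1 DBA/2J read 9.28, 8.36 and 8.70, Balb/c 7.97, 8.79 and 7.14, C57BL/6J 7.56, 8.01, 8.03 and 7.25, A/J 7.63, 7.49, 7.10 and 6.97, and 129X1/SvJ 6.88, 7.35 and 6.57. The T1 arrays of DBA/2J were all above those of C57BL/6J, A/J and 129X1/SvJ and overlapped with those of Balb/c. The mean rise was 2.86 ± 0.12 log2 units (adjusted p = 5.05e-20, 17 of 17 pairs).

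DBA/2J exceeded 129X1/SvJ by 1.85 ± 0.27 in Ccl1 at T1 (adjusted p = 3.65e-05) and exceeded A/J by 1.48 ± 0.26 (adjusted p = 0.00026). Neighbours in the order of means were not told apart with all arrays. The nearest to a call was DBA/2J above Balb/c, by 0.82 ± 0.27 (adjusted p = 0.0562), which was called without Balb/c T1 replicate 2 (adjusted p = 0.00163) or DBA/2J T1 replicate 3 (adjusted p = 0.0315). The range of the T1 means was called (1.85, adjusted p = 6.49e-05), that of the T0 means was not (0.22, adjusted p = 0.967), and the responses differed (range 1.90, adjusted p = 0.00631). With every T0 array under the filter limit, this range is not a measure apart from the T1 range: with values under the limit set to it, the 2 ranges are the same, 1.85 (adjusted p of the response 0.00807). Without Balb/c T1 replicate 2 the response in Balb/c was 2.73, against 3.14 with it.

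Ccl22 (macrophage-derived chemokine), a ligand of Ccr4 that dendritic cells, B cells and activated T cells make, rose by 2.44 ± 0.12 log2 units on average (adjusted p = 4.74e-18, 17 of 17 pairs). At T1 129X1/SvJ read 8.16, 8.25 and 8.52, C57BL/6J 8.15, 7.21, 8.55 and 7.57, DBA/2J 7.78, 7.90 and 7.50, Balb/c 6.74, 8.04 and 6.84, and A/J 6.82, 6.30, 7.13 and 6.78. All T0 arrays lay between 4.59 and 5.66, with 3 of 5 strain means under the filter limit. Every T1 array of 129X1/SvJ lay above every T1 array of A/J, by 1.55 ± 0.26 on average (adjusted p = 0.000197). The T1 range was called (adjusted p = 0.000285), while the T0 range of 0.61 (adjusted p = 0.296) and the response range of 1.03 (adjusted p = 0.302) were not. With values under the limit set to it, the response range was 1.44 and was called (adjusted p = 0.0367). Balb/c rose by 1.97 without T1 replicate 2, against 2.39 with it.

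Ccl20, which binds Ccr6 and is made by interleukin-17-producing T cells among others, rose by 1.78 ± 0.10 log2 units (adjusted p = 1.03e-16, 17 of 17 pairs). T0 means lay under the filter limit in all 5 strains, with arrays between 4.49 and 5.39. C57BL/6J was lowest at T1, with 6.75, 6.10, 6.01 and 6.03, against 7.12, 7.01, 7.05 and 6.93 in A/J. Balb/c read 7.09, 7.52 and 6.14, DBA/2J 6.52, 6.91 and 6.95, and 129X1/SvJ 7.07, 6.93 and 6.24. A/J exceeded C57BL/6J by 0.81 ± 0.20 at T1 (adjusted p = 0.00885), and that pair held in every fit without 1 array.

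The T1 range of Ccl20 was called over the strains (adjusted p = 0.0212) but not without C57BL/6J T1 replicate 2, 3 or 4 (adjusted p from 0.07 to 0.0839). The response ran from 1.00 in C57BL/6J to 2.18 in A/J. Its range of 1.18 had an adjusted p of 0.0453 and lost the call in 25 of the 34 fits without 1 array, with adjusted p from 0.0517 to 0.11. It was also lost when all genes were tested with no filter (adjusted p = 0.0613) and with values under the limit set to it (range 0.82, adjusted p = 0.232). Balb/c rose by 1.74 without T1 replicate 2 and by 2.04 with it.

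Cxcl9 and Cxcl10, the interferon-induced ligands of Cxcr3, and Cxcl16 had mean changes below those of Xcl1 and of the CC ligands other than Ccl5, and the standard errors of these changes were larger, 0.14 to 0.20 against 0.07 to 0.12. Cxcl9 rose by 1.26 ± 0.18 log2 units on average (adjusted p = 2.86e-07), higher in 17 of 17 pairs. C57BL/6J was the highest strain at both times, with 7.58, 7.19, 8.63 and 7.99 at T1 and 6.45, 5.88, 8.01 and 7.30 at T0. The other strains ran from 5.72 to 7.69 at T1 and from 4.63 to 6.38 at T0. The C57BL/6J arrays overlapped with them at both times.

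For Cxcl9, C57BL/6J exceeded DBA/2J by 1.48 ± 0.40 at T1 (adjusted p = 0.0166) and by 1.92 ± 0.40 at T0 (adjusted p = 0.00181), and exceeded A/J by 1.44 ± 0.37 at T1 (adjusted p = 0.0118) and by 1.88 ± 0.37 at T0 (adjusted p = 0.00098). The 2 differences at T0 held without any 1 array, and those at T1 did not: each was lost without C57BL/6J T1 replicate 3, and without DBA/2J T1 replicate 2 or A/J T1 replicate 2 for its own pair. The F test gave an adjusted p of 0.0104 at T1, or 0.0607 without C57BL/6J T1 replicate 3, and 0.00134 at T0. Responses ran from 0.93 in C57BL/6J to 1.66 in 129X1/SvJ and were not called as different (adjusted p = 0.892). By strain, the rise was called in all but Balb/c (0.95 ± 0.43, adjusted p = 0.0641), and that of C57BL/6J lost its call without T0 replicate 1 or 2 or T1 replicate 3 or 4.

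Cxcl10 showed responses of opposite sign. In A/J it read 9.43, 9.22, 10.00 and 9.60 at T1, against 7.84, 7.01, 7.89 and 7.80 at T0, a rise of 1.93 ± 0.40 log2 units (adjusted p = 0.000146) seen in 4 of 4 pairs. In C57BL/6J it read 8.37, 8.25, 9.26 and 8.88 at T1, against 9.22, 8.35, 10.32 and 9.78 at T0, lower in 4 of 4 pairs by 0.09 to 1.06. That difference of -0.72 ± 0.40 was not called (adjusted p = 0.117), though without C57BL/6J T0 replicate 2 it was (-1.08, adjusted p = 0.0242). The arrays of T1 and T0 did not overlap in A/J and overlapped in C57BL/6J.

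The other strains lay between them: DBA/2J changed by 0.79 ± 0.47 in Cxcl10, Balb/c by 0.40 ± 0.47 and 129X1/SvJ by 0.14 ± 0.47, none of them called. DBA/2J read 8.12, 8.31 and 8.41 at T1, against 6.67, 8.19 and 7.62 at T0. Balb/c read 7.67, 8.87 and 8.38 at T1, against 7.32, 7.19 and 9.22 at T0, and 129X1/SvJ read 8.42, 8.14 and 9.13 at T1, against 7.80, 8.33 and 9.15 at T0. The difference between the 5 responses was called (range 2.65, adjusted p = 0.0292). It lost the call without A/J T0 replicate 2, A/J T1 replicate 4 or 5, C57BL/6J T1 replicate 1 or 2, or C57BL/6J T0 replicate 3 or 4, with adjusted p up to 0.073. The mean change over strains, 0.51 ± 0.20, was called (adjusted p = 0.0206) with 10 of 17 pairs higher at T1.

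At T0 Cxcl10 was highest in C57BL/6J, which exceeded A/J by 1.78 ± 0.40 (adjusted p = 0.00396), a pair that held without any 1 array, and exceeded DBA/2J by 1.93 ± 0.44 (adjusted p = 0.00387, or 0.0541 without DBA/2J T0 replicate 2). At T1 A/J had the highest mean, 9.56 ± 0.33 (SD, n = 4), against 8.69 ± 0.47 (SD, n = 4) in C57BL/6J, and the T1 range of 1.28 was not called (adjusted p = 0.0843), or was called without Balb/c T0 replicate 4 (adjusted p = 0.0366). With the replicate number added to the model as a block, the F test called the T1 range (1.61, adjusted p = 0.00245). In the model without that block, no pair of strains was told apart at T1 with all arrays. A/J was called above Balb/c without C57BL/6J T0 replicate 2, Balb/c T1 replicate 2 or replicate 4 of Balb/c T0, and above DBA/2J without any 1 of these or C57BL/6J T0 replicate 3, with adjusted p from 0.029 to 0.0491.

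Cxcl16, the membrane-bound ligand of Cxcr6, was the ligand with no call for stimulation: 0.02 ± 0.14 log2 units (adjusted p = 0.899), with 8 of 17 pairs higher. Its arrays ran from 5.09 to 6.89 at T1 and from 4.83 to 7.02 at T0, and no strain's change was called (from -0.28 in 129X1/SvJ to 0.50 in Balb/c). The T0 range of 1.03 had an adjusted p of 0.0414. That call was lost in 9 of the 34 fits without 1 array: A/J T0 replicate 1 or 2, Balb/c T0 replicate 1 or 2, C57BL/6J T0 replicate 1, 3 or 4, DBA/2J T0 replicate 4, or 129X1/SvJ T0 replicate 4 (adjusted p up to 0.111). The T1 range, 0.69, was not called (adjusted p = 0.386). With the replicate number added to the model as a block, the F test called the T1 range (0.54, adjusted p = 0.00828).

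Markers of other cells were measured in these bead-sorted samples, and they bear on ligands that myeloid cells also make. The monocyte or macrophage list (9 of 10 genes measured, 8 above the filter limit on average, led by Lyz2, Cd68 and C1qa) had array scores from 5.79 to 7.22 at T1 and from 6.03 to 7.68 at T0. In C57BL/6J its scores at T1 were 6.34, 5.95, 7.09 and 6.62, against 6.15, 6.03, 7.44 and 6.94 at T0. Replicate 3 was the highest of that strain at both times for this score and also for Cxcl9, Cxcl10 and Cxcl16. The strain order of the score at T0 was another: 129X1/SvJ, with 6.93, 6.38 and 7.68, had the highest mean, and C57BL/6J the lowest, 6.64 ± 0.67 (SD, n = 4). The 9 genes of this list had adjusted p of 0.561 to 0.987 between strains at T0 in the F test.

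The dendritic cell list had 8 of 8 genes measured, 5 above the filter limit on average, led by Itgax, Siglech and Zbtb46. Its scores ran from 4.93 to 5.59 at T1 and from 5.09 to 6.02 at T0. Of the 8 genes, 6 passed the filter, and Clec9a and Xcr1 had no group mean at the limit. B cell scores (9 of 10 measured, led by Blk, Cr2 and Cd79b) ran from 6.22 to 6.89 at T1 and from 7.21 to 8.95 at T0. Of the 9 genes 7 fell, against 46.3% of all genes, while Blk and Cr2 rose, by 0.76 and 0.93 log2 units. The B cell scores at T0 were highest in 129X1/SvJ and DBA/2J, the 2 strains low in Xcl1 at T0, with 8.21 to 8.95 against 7.21 to 8.15 over the other strains. The erythroid list (5 of 7 measured, led by Alas2) had adjusted p of 0.337 to 0.865 for stimulation. By the F test 5 of its 5 genes differed between strains at T0, against 18.5% of all genes. Its mean score at T0 ran from 5.10 in 129X1/SvJ to 8.72 in A/J. Balb/c T1 replicate 2, the array that stood apart, scored 6.08, against 8.76 and 9.09 on the other arrays of its group. What part such cells have in the levels of Cxcl9, Cxcl10, Cxcl16, Ccl22 or Xcl1 was not tested.

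**Figure D3:**
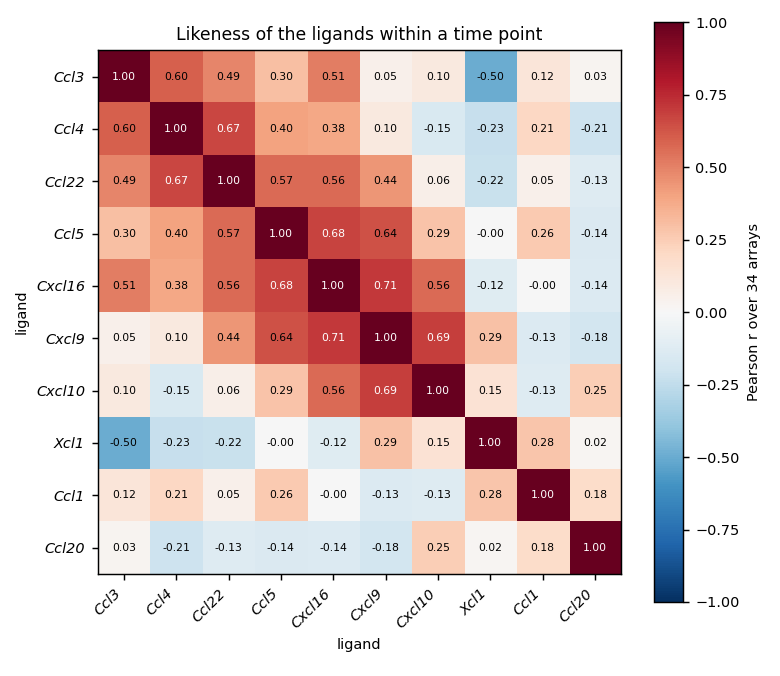
Pearson correlation (colour and printed value) between the ligands over 34 arrays, after the mean of the 5 strain means of the same time was taken from each value. Cxcl9 lies at 0.71 with Cxcl16 and 0.69 with Cxcl10, Ccl4 at 0.67 with Ccl22, and Ccl3 at -0.50 with Xcl1.

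Within a time point, the ligands fell into partly separate patterns over strains and arrays. Cxcl9 followed Cxcl16 (r = 0.71) and Cxcl10 (r = 0.69), Ccl5 followed Cxcl16 (r = 0.68), and Ccl4 followed Ccl22 (r = 0.67) and Ccl3 (r = 0.60). Xcl1 ran against Ccl3 (r = -0.50). These correlations over 34 arrays describe points that share strains, replicate numbers and arrays, and carry no test.

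By the same measure, the genes most like each ligand were named, 3 for each. For Xcl1 these were Il4 (r = 0.92), Ifng (0.88) and Zbtb16 (0.87). For Ccl4 they were Plbd2 (0.85), Cd40 (0.82) and Cdk6 (0.82), for Ccl3 Zeb2 (0.82), Plek (0.80) and Atf6 (0.79), and for Ccl5 Ifi214 (0.87), Pdia4 (0.85) and Ifi209 (0.83). Ccl22 was most like Ptprj (0.85), Ildr1 (0.84) and Crybg3 (0.83), and Ccl1 most like F3 (0.72), Rgs16 (0.71) and Trpm6 (0.70). Ccl20 had the lowest values, with Zbtb1 (0.61), Ctla4 (0.61) and Tigit (0.57). Cxcl16 was most like Tm6sf1 (0.86), Itgax (0.85) and Dnase1l3 (0.84), Cxcl9 like Clec7a (0.80), Klrk1 (0.80) and Slamf8 (0.80), and Cxcl10 like Rel (0.80), Plagl1 (0.79) and Pmaip1 (0.71).

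The receptors of these ligands, with Ccrl2 listed beside them, were tested in the same model. Of 10 receptors measured with 1 symbol, 7 passed the filter. Of these 7, 4 rose and 2 fell (36% and 46.3% of all genes), and 1 had no call. With 82.3% of all genes called, these counts alone say little. The median change of the 7 was 0.26. Ccr8, the receptor of Ccl1, rose by 3.48 ± 0.09 log2 units (adjusted p = 1.54e-24, 17 of 17 pairs), from 2.67 in C57BL/6J to 3.96 in 129X1/SvJ. Its array values ran from 9.16 to 10.53 at T1 and from 4.81 to 7.73 at T0. In 129X1/SvJ the T0 mean of 5.30 lay under the filter limit, so the size of that strain's rise is not exact. Ccr8 and Ccl1 thus both rose in every strain.

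Ccr4, the receptor of Ccl22, rose by 0.64 ± 0.06 (adjusted p = 6.6e-11, 16 of 17 pairs). Ccrl2, a receptor that does not signal and is no established receptor of these ligands, rose by 0.54 ± 0.10 (adjusted p = 1.17e-05, 16 of 17 pairs). Cxcr3, the receptor of Cxcl9 and Cxcl10, rose by 0.26 ± 0.09 (adjusted p = 0.00711, 12 of 17 pairs). Cxcr6, the receptor of Cxcl16, fell by 0.89 (SE 0.12, adjusted p = 5.62e-08, lower in 16 of 17 pairs), and Ccr6, the receptor of Ccl20, fell by 0.75 (SE 0.07, adjusted p = 1.36e-10, lower in 17 of 17 pairs). Every T1 strain mean of Ccr6 lay under the filter limit. It passed the filter through T0 alone, and the size of its fall is not exact. Ccr3, an eosinophil receptor that also binds Ccl5, changed by -0.16 ± 0.11 (adjusted p = 0.17). Ccr1, Xcr1 and the scavenging receptor Ackr2 did not pass the filter. The strain responses of Ccr8, Ccr4 and Ccr6 differed (adjusted p = 0.0232, 0.00707 and 0.0144). For Ccr6 this is not a measure apart from the T0 range of 0.84 (adjusted p of the F test 0.000269). Its T1 range of 0.33 was not called (adjusted p = 0.521). T0 means of Ccr6 were highest in DBA/2J (6.21) and 129X1/SvJ (5.98), also the strains with the highest B cell scores at T0. What part B cells have in the levels of Ccr6 was not tested.

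Among the 28 other chemokine ligands listed, 26 were measured with 1 symbol and 13 passed the filter. Of these 13, 10 rose and 2 fell (36% and 46.3% of all genes), Cx3cl1 having no call. Their median change was 0.44, against 2.11 for the 10 ligands above and -0.07 for all genes. Of those that rose, Ccl2, Ccl7 and Cxcl11 had every T0 strain mean under the filter limit and passed the filter through T1 alone. Of those that fell, Ccl6 had every T1 strain mean under it and passed through T0 alone. These counts and the median are thus not independent of the filter. Cxcl2, a neutrophil attractant, rose by 2.57 ± 0.19 log2 units (adjusted p = 7.77e-14, 17 of 17 pairs), with arrays from 7.56 to 9.96 at T1 and from 5.46 to 7.49 at T0. Cxcl3, its close relative, rose by 1.30 ± 0.13 (adjusted p = 1.39e-10, 17 of 17 pairs), from 0.56 in 129X1/SvJ to 2.38 in A/J, and these responses differed (adjusted p = 0.0144). T0 means of Cxcl3 lay under the filter limit in 4 strains, all but A/J (5.35). The T0 range of 0.26 was not called (adjusted p of the F test 0.97) and the T1 range of 2.04 was (1.9e-05). The response range of Cxcl3 is thus not a measure apart from its T1 range. No other ligand of this list changed by as much as 1 log2 unit with a call. Of the neutrophil marker genes, 7 of the 7 that passed the filter fell, against 46.3% of all genes, Ngp and S100a9 being the brightest. The filter asks only that the highest group mean reach the limit, so a gene high at T0 alone passes it. What part neutrophils have in the levels of Cxcl2 and Cxcl3 was not tested.

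**Figure D4:**
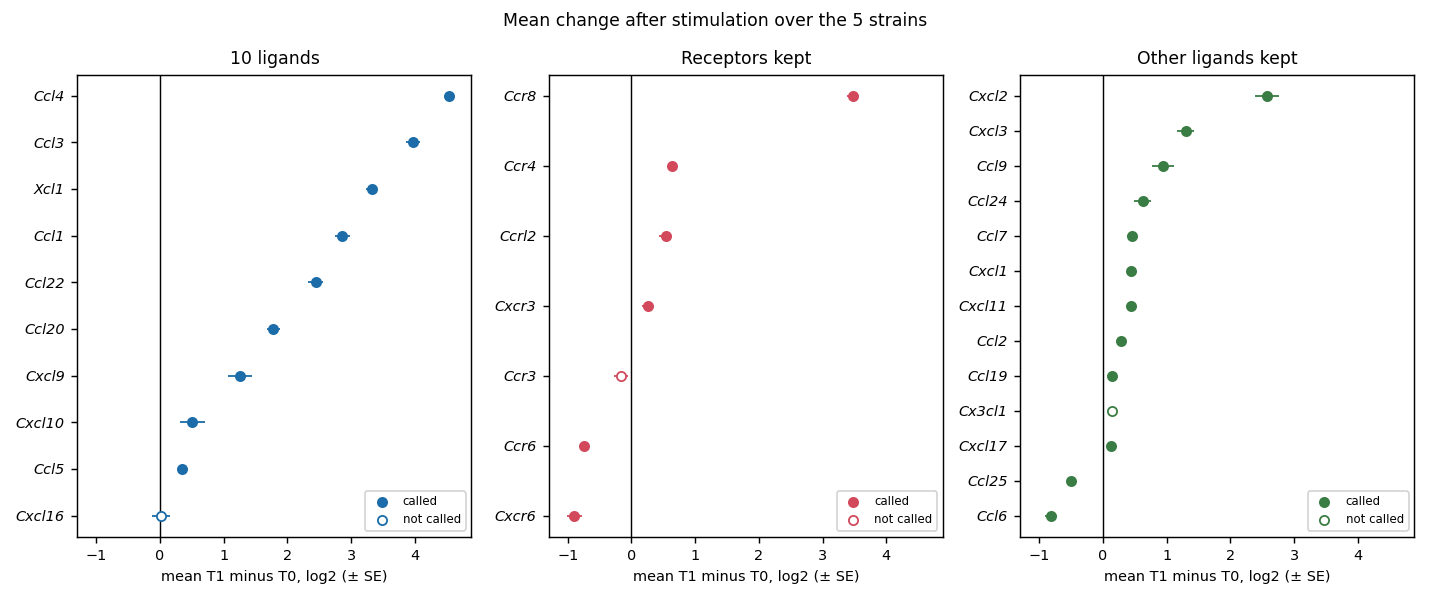
Mean T1 minus T0 over the 5 strains in log2 intensity (horizontal axis, point with standard error) for the 10 ligands, the 7 receptors and the 13 other ligands that passed the filter. Filled points are called at an adjusted p under 0.05 and open points are not. The ligands run from 0.02 (Cxcl16) to 4.54 (Ccl4).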

How the data were processed

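RNA of CD4+ splenocytes was hybridised to 34 Affymetrix arrays, 1 per sample. The authors deposited log2 intensities per probe set, made with RMA per the submitters' processing notes. RMA corrects background, normalizes arrays by quantiles and summarises probes, which makes distributions alike and hides any change shared by all genes. The version of RMA, how probe sets were defined and whether any were filtered is not stated in the sources used here, and the number of arrays limits the precision.

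Of 35556 probe sets, 21789 had 1 gene symbol in GEO's platform annotation, 1621 had several and 12146 none, and only the first were used. Symbols were updated through 21698 gene IDs found in RefSeq. The brightest probe set stood for each of 19938 genes, 999 of which had several. Groups came from strain and time in the labels. limma 3.58.1 in R 4.3.3 fitted 10 groups, with contrasts T1 minus T0 per strain and on average, moderated F tests over strains, and 10 pairs of strains per time, tested on simulated data first. Pairs of strains were adjusted jointly over genes and pairs. The genes named were the 10 ligands, their listed receptors, other listed chemokine ligands with a call and at least 1 log2 unit of change (at most 6 each way), the 3 genes most correlated with each ligand, and the brightest 3 or fewer of each marker list. Beyond that rule, Cx3cl1, Ccl2, Ccl6, Ccl7, Cxcl11 and the markers Ncr1, Klrb1c and Clec9a were named after their values were seen. Marker scores average the log2 values of the measured genes of a list. The ligands, lists and tests were chosen with earlier results of these data known.

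T1 and T0 arrays of the same strain share replicate numbers, which were not taken as a pairing because not every pair's deviations correlated above the limit set for it. Counts of pairs beside a result compare same-numbered arrays as a description. Alternatives were no filter, quantile normalization repeated, the mean of all probe sets of a gene, limma with trend and robust variance, array weights, the replicate number as a block, each array left out in turn and, chosen after the data were seen, values under the filter limit set to it for the responses. Array dates or batches were not given in the labels. Strain levels of each ligand rest on 1 probe set, and sequence differences between strains under the probes were not examined. Figures were drawn with matplotlib 3.10.9.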

Additional observations from a re-analysis of the deposited data

Results flagged for a closer look

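The highest or lowest array lay far from the other 3 of its group for 4 of the 40 groups of 4 arrays examined, where chance flags about 1 in 20. Ccl4 read 6.72 on A/J T0 replicate 2, below the other A/J T0 arrays (6.87 to 6.90). Cxcl10 read 7.01 on the same array, below 7.80 to 7.89. Ccl20 read 6.75 on C57BL/6J T1 replicate 1, above 6.01 to 6.10. Cxcl16 read 6.89 on C57BL/6J T1 replicate 3, above 5.77 to 5.85.

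The response to stimulation differed between strains for 5 ligands by the F test over the 5 responses. The range of responses was 2.46 log2 units for Xcl1, 2.65 for Cxcl10, 1.90 for Ccl1, 1.18 for Ccl20 and 0.92 for Ccl4. Those of Xcl1 and Ccl1 stayed called without any 1 array, and those of Cxcl10, Ccl4 and Ccl20 did not. T0 values lay under the filter limit for Ccl1 on every array and for Ccl20 in every strain mean, so their response ranges are not measures apart from the T1 ranges. Cxcl10 was higher at T1 in 4 of 4 A/J pairs and lower in 4 of 4 C57BL/6J pairs.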

How the results depend on the processing

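Over 66 results, the alternatives other than leaving out 1 array gave 388 values of the same direction and side of the threshold and turned no direction. With no filter, 21 of the other chemokine ligands were called, against 12. Array weights called 3406 genes between strains at T0, against 2107, and 1639 for the response, against 790, and they also called Ccl4 (adjusted p = 0.0192) and Ccl22 (0.0348) at T0, the response of Ccl22 (0.041) and Cxcl10 at T1 (0.0367). The T0 difference of Cxcl16 lost its call with no filter (0.0503), quantile normalization repeated (0.0541) and trend and robust variance (0.0717), the last of which also lost the response of Cxcl10 (0.071). With the replicate number as a block, the response of Ccl20 lost its call (0.0594), and Cxcl10 at T1 (0.00245), Cxcl16 at T1 (0.00828) and Ccr3 (0.031) gained one. No other call changed among the mean changes of the 10 ligands, 7 receptors, Cxcl2 and Cxcl3 and the strain differences and responses of the 10 ligands. The strain tests of the receptors and of Cxcl3 were not rerun under the alternatives. Deviations from the group means correlated from -0.08 to 0.47 within the 17 same-numbered pairs of T1 and T0 arrays, with 14 over 0.1, and each T0 array correlated best with the T1 array of its own number in 13 of 17 cases, a hint from the data and not the design. Across strains the median correlation was 0.17 for the same number and -0.07 for different numbers. With every value under the filter limit set to it, chosen after the data were seen, the response of Ccl20 lost its call (0.232) and that of Ccl22 gained one (0.0367), and the other 8 ligands' responses kept theirs.

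With 1 of the 34 arrays left out, the mean change of Cxcl16, never called, ranged from -0.034 to 0.075 and turned sign in 11 fits, and the number of ligands whose response differed ranged from 2 to 5. The count of ligands that rose stayed at 9. Cxcl10 at T1 was called without Balb/c T0 replicate 4 (0.0366). The causes were not tested. RMA values carry no background measure, so differences of values under the filter limit have no fold here.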
